A study of Mus musculus with 6 samples.

Results

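Pyruvate and lactate fate was described through 10 genes: the lactate dehydrogenase subunits Ldha and Ldhb, the monocarboxylate transporters Slc16a1 and Slc16a3, the pyruvate dehydrogenase subunits Pdha1 and Pdhb, the pyruvate dehydrogenase kinases Pdk2 and Pdk4, and the mitochondrial pyruvate carrier subunits Mpc1 and Mpc2. The genes were chosen by name, and all probes whose RefSeq accession belonged to one of them were taken. All 10 genes had a usable probe, 15 probes in all, and they are 10 of the 20900 genes tested. RNA came from the gastrocnemius, a calf muscle of mixed fibre type, of 3 young male mice (13 weeks of age) and 3 aged male mice (26 months of age), each hybridised to 1 Agilent array in a single colour. The methods name C57BL/6J mice on a standard laboratory diet, and the labels give neither group any genetic change or treatment. Whole muscle was used, so RNA of vessels, nerve, fat and blood is included, and in such bulk RNA fewer cells of a type and less RNA per cell cannot be told apart.

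Glycolysis in the cytosol ends in pyruvate, which muscle either reduces or oxidizes. Lactate dehydrogenase, a tetramer of A and B subunits, converts it to lactate and back, and lactate crosses the plasma membrane through monocarboxylate transporters. Alternatively, pyruvate enters mitochondria through a carrier made of MPC1 and MPC2 and is turned into acetyl-CoA by the pyruvate dehydrogenase complex, which pyruvate dehydrogenase kinases switch off by phosphorylation and phosphatases switch on. Fast glycolytic fibres are known for LDHA and for MCT4, the product of Slc16a3, which exports lactate, whereas oxidative fibres and heart are known for LDHB and for MCT1, the product of Slc16a1.

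Signals are given on the log2 scale relative to the 75th percentile of the array, so that 0 is that percentile and a difference of 1 is a doubling. That percentile ranged from a signal of 209.5 to 299.9 among young and from 270.8 to 310.7 among aged mice, and 48.7% to 53.8% of probes per array exceeded background clearly. No probe was saturated. The 8 skeletal muscle genes examined (Acta1, Ckm, Mb, Des, Ttn, Neb, Actn2 and Myoz1) had log2 differences between aged and young mice from -0.29 to 0.22. All arrays were on 1 slide, with the young mice and aged mouse 1 in row 1 and aged mice 2 and 3 in row 2. The number of arrays limits the precision, and with 3 mice per age a two-sided exact permutation p cannot go below 0.1. The labels do not say whether the mice differed in anything but age. The methods give a higher mean body weight and a lower mean gastrocnemius weight for the aged mice.

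In aged mice, the lactate exporter Slc16a3 stood at 0.574-fold of the level in young mice, the kinase Pdk2 at 0.654-fold and the carrier subunit Mpc2 at 0.733-fold, and for each of them the aged mice all lay beneath the lowest young mouse. Ldha and Pdha1 differed by less than the spread between mice, and Pdk4 varied more among the young mice than between the ages. None of the 10 genes passed an adjusted p of 0.05 in limma, the threshold that 0.254% of the 20900 genes passed. Slc16a3, Pdk2 and Mpc2 were lower with an unadjusted p under 0.05, as were 8.38% of all genes. The aged and young mice did not overlap for 5 of the 10 genes (Slc16a3, Pdk2, Mpc1, Mpc2 and Pdhb), all lower in aged mice, as was the case for 13.9% of all genes. The mean was lower in aged mice for 9 of the 10 genes, Pdk4 being the exception, and for 56.9% of all genes. The median log2 difference was -0.27 over the 10 genes and -0.06 over all genes. Bright probes lay somewhat lower in aged mice in general at this scaling, with a median of -0.12 over 1103 genes of mean signal 6 to 8 (log2) and of -0.16 over the 406 genes above 8.

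**Figure D1:**
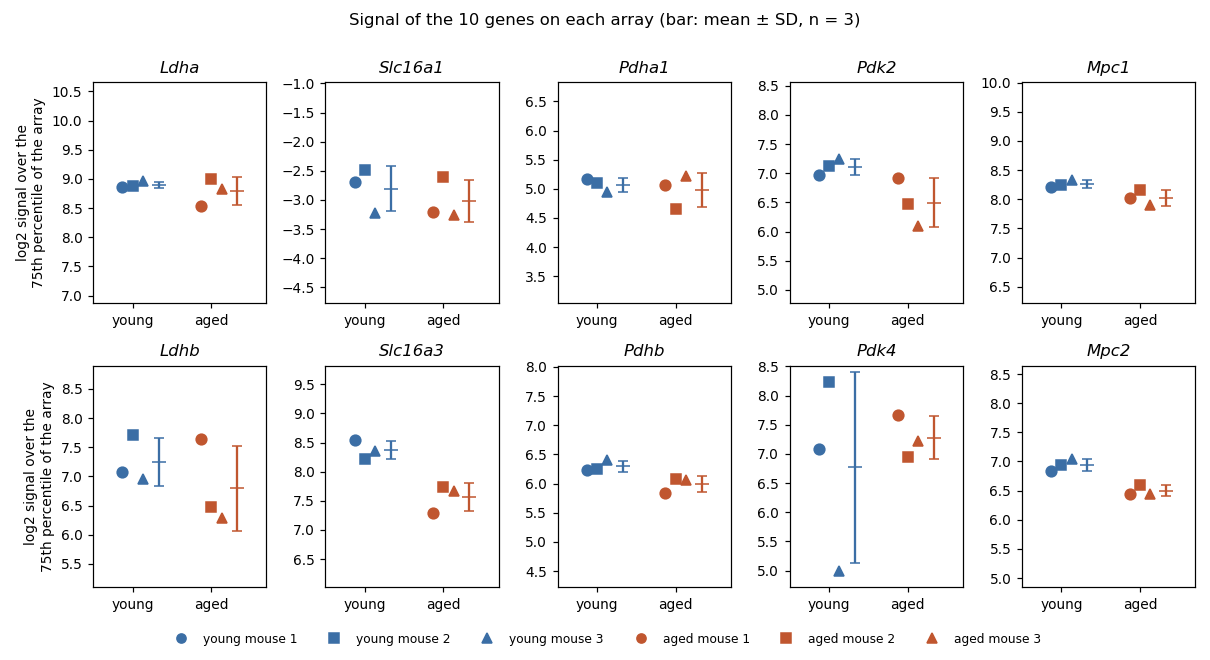
Log2 signal of each of the 10 genes on each array, relative to the 75th percentile of that array (vertical axis, the same span in every panel), for young (blue) and aged (orange) mice, with the mean and SD of each group beside the points (n = 3). Slc16a3, Pdk2, Pdhb, Mpc1 and Mpc2 have every aged mouse below every young mouse, and Pdk4 spans 3.23 log2 units among the young mice.

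Ldha (NM_001136069) encodes the A subunit that predominates in fast fibres. It read 8.86, 8.88 and 8.96 (log2) in the young mice, given in the order 1 to 3 here and throughout, and 8.53, 9.01 and 8.83 in the aged mice. The groups overlapped, with 2 aged mice below all young mice and aged mouse 2 above them. The log2 difference was -0.11 (standard error 0.18, 95% confidence interval -0.53 to 0.31, adjusted p = 0.795 from limma), and it turned positive without aged mouse 1 (0.017) and after quantile normalization (0.039).

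Ldha had 2 further probes, which parted from the one above in young mouse 3. The second probe read 5.79, 5.53 and 4.63 in young and 4.45, 5.49 and 5.08 in aged mice. The third read 8.29, 7.86 and 5.83 in young and 7.28, 7.86 and 8.02 in aged mice. Both were lowest among the young in young mouse 3, where the brightest probe was highest. Their log2 differences were -0.31 and 0.39, against -0.11 for the brightest, so the direction for Ldha depended on the probe. The part of the transcript that each probe reads was not examined here.

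Ldhb (NM_008492) encodes the B subunit. The 6 arrays gave a log2 signal of 7.07, 7.72 and 6.95 in young and 7.63, 6.48 and 6.28 in aged mice. Aged mouse 1 was among the highest of all 6 mice, while aged mice 2 and 3 were below every young mouse. The log2 difference was -0.45 (standard error 0.40, 95% confidence interval -1.39 to 0.49, adjusted p = 0.628 from limma). Single mice decided its size: the log2 difference was -0.87 without aged mouse 1, -0.29 without aged mouse 2, -0.19 without aged mouse 3 and -0.21 without young mouse 2, and within row 1 of the slide, where aged mouse 1 is the only aged mouse, it was 0.39. The difference between Ldhb and Ldha within an array was -1.79, -1.16 and -2.01 in young and -0.89, -2.52 and -2.55 in aged mice, a change of -0.34 that was within the spread between mice (exact two-sided permutation p = 0.6, adjusted p = 0.6 over the 5 gene pairs compared). It was -0.88 without aged mouse 1, -0.51 without young mouse 3, and between -0.09 and -0.057 without young mouse 2, aged mouse 2 or aged mouse 3. Since each probe binds with its own strength, such a difference says nothing of which subunit is more abundant, and only its change between groups was read.

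Slc16a3 (NM_030696) encodes MCT4, a low-affinity transporter that carries lactate and a proton out of glycolytic fibres. Its log2 signal was 8.54, 8.22 and 8.35 in young mice and 7.30, 7.73 and 7.68 in aged mice. The highest aged mouse was below the lowest young mouse, and aged mouse 1 was the lowest. The log2 difference was -0.80 (standard error 0.19, 95% confidence interval -1.25 to -0.36, unadjusted p = 0.00393 and adjusted p = 0.161 from limma). A second probe of the gene read 8.45, 8.20 and 8.33 in young and 7.29, 7.69 and 7.63 in aged mice, with a log2 difference of -0.79. The direction was the same under all 18 alternatives to the processing. Their log2 differences ran from -1.07 to -0.67 and their adjusted p from 0.0977 to 0.390 in limma. The variance model, the replicate block and the series matrix, which held the same intensities, could not change a log2 difference. Both filters on dim probes left that of Slc16a3 at -0.80.

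**Figure D2:**
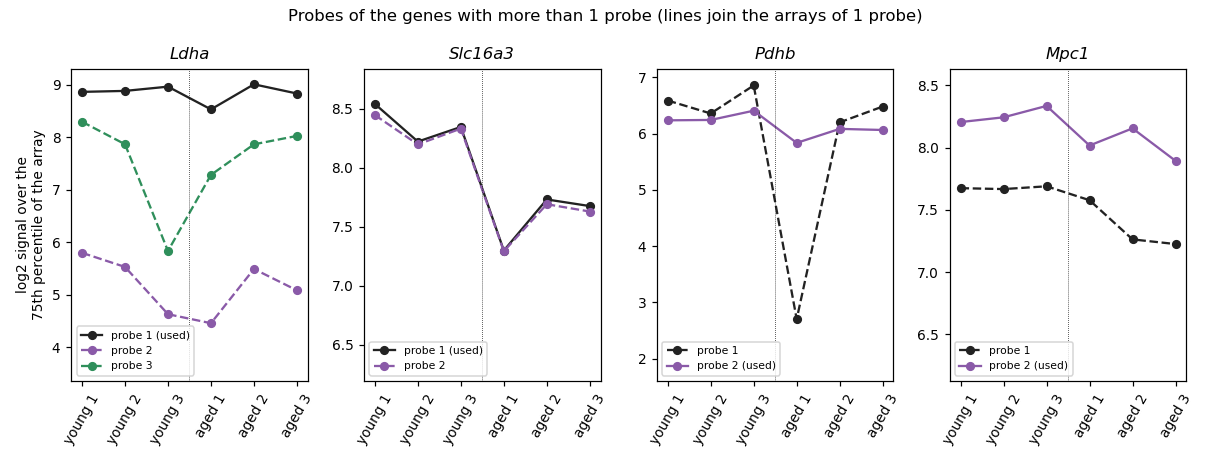
Log2 signal relative to the 75th percentile of the array (vertical axis) for each probe of the 4 genes with more than 1 probe, over the 6 arrays, with the probe used for the gene drawn as a solid line. The Slc16a3 and Mpc1 probes are all lower in aged mice, whereas the Ldha probes part in young mouse 3 and a Pdhb probe reads 2.70 in aged mouse 1 and at least 6.20 on the other arrays.

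Slc16a1 (NM_009196) encodes MCT1, the carrier through which oxidative fibres, and also erythrocytes and Schwann cells, take up or release lactate. It had 1 probe, far dimmer than those of the other 9 genes although well above background on all 6 arrays. Its log2 signal was -2.70, -2.49 and -3.23 in young and -3.20, -2.61 and -3.25 in aged mice. The groups overlapped, and the log2 difference of -0.22 (standard error 0.27, 95% confidence interval -0.86 to 0.42, adjusted p = 0.738 from limma) was within the spread between mice. With 1 mouse left out it ran from -0.43 (without young mouse 3; -0.42 without aged mouse 2) to -0.059 (without young mouse 2; -0.10 and -0.13 without aged mice 3 and 1). Relative to Slc16a3 on the same array, Slc16a1 stood at -11.24, -10.71 and -11.57 in young and -10.50, -10.34 and -10.93 in aged mice, a change of 0.59 towards Slc16a1 with 1 aged mouse inside the range of the young (exact two-sided permutation p = 0.2, adjusted p = 0.5 over 5 pairs) and that was 0.39 without young mouse 3.

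Slc16a3 and Ldha are both known targets of hypoxia-inducible factors, and ACGTG is 1 form of the core of the sites these factors bind. Other forms were not searched. The 250 bases before the RefSeq transcript start are shown for these genes and for Pdk2, the other gene of the 10 that was lower with an unadjusted p under 0.05 and held this motif. The sequences come from RefSeq on GRCm38.p6, written 5′ to 3′ on the strand of the gene, with capitals marking ACGTG on either strand (CACGTG holds it on both). The Slc16a3 window is chr11:120948817-120949066 (plus strand), the Ldha window chr7:46845554-46845803 (plus strand) and the Pdk2 window chr11:95041372-95041621 (minus strand). Ldha and Pdk2 each had another RefSeq transcript start, whose window held no ACGTG and is not shown.
Slc16a3: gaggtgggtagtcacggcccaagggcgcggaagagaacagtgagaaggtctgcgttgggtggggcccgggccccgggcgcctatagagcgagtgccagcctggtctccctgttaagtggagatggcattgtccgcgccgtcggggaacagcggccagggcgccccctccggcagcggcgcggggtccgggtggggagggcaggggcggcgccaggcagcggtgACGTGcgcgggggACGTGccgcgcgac
Ldha: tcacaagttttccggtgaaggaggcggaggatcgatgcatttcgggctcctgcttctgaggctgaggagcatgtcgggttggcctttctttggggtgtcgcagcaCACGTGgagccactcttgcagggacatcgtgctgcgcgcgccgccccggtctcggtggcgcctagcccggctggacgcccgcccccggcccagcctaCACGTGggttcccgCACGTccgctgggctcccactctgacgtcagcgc
Pdk2: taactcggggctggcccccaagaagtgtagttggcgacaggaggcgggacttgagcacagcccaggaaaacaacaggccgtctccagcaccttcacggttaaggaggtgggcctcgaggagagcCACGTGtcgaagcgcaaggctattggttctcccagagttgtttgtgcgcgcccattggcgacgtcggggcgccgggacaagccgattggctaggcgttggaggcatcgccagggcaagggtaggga
In the Slc16a3 window the motif ends 22 and 9 bases before the transcript start. In the Ldha window shown there are 5 matches, the nearest ending 29 bases before the start. Over both strands, 16.6% of 32851 windows of this length held ACGTG, and so did 5 of the 13 windows of the 10 genes, namely 1 each of Ldha, Slc16a1, Slc16a3, Pdhb and Pdk2. The nuclear receptor half-site AAGGTCA (4.08% of windows) and the forkhead site GTAAACA (3.17% of windows) were in none of the windows of the 10 genes, Pdk4 included. A match of letters is a description of the window and not a measured site, and a window without ACGTG may hold another form of it.

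Genes known to be induced by hypoxia were therefore read beside Slc16a3 and Ldha. Of 13 listed genes, all tested, none passed an adjusted p of 0.05 in limma, and 3 were lower and none higher in aged mice at an unadjusted p under 0.05 (8.38% and 6.07% of all genes). Those were Ankrd37, an ankyrin repeat protein, with a log2 difference of -0.92 (adjusted p = 0.182), the angiogenic factor Vegfa with -0.45 (adjusted p = 0.299) and Ndrg1 with -0.45 (adjusted p = 0.316). The mean was lower for 9 of the 13 genes (56.9% of all genes) and the median was -0.16, from 0.71 for the oxygen sensor Egln3 to -1.14 for the mTORC1 inhibitor Ddit4, which ranged from 2.92 to 7.74 among the young mice. The median turned to -0.35 without aged mouse 1 and to 0.0044 within row 1 of the slide.

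Mpc1 (NM_018819) and Mpc2 (NM_027430) encode the carrier in the inner mitochondrial membrane, in which each subunit depends on the other for stability. Mpc2 was 6.84, 6.94 and 7.05 in young and 6.44, 6.60 and 6.45 in aged mice. Mpc1 was 8.21, 8.24 and 8.34 in young and 8.02, 8.15 and 7.89 in aged mice. For both subunits the aged mice were all below the young mice, and the groups were separated by more than their own spread for Mpc2. The log2 difference of Mpc2 was -0.45 (standard error 0.15, 95% confidence interval -0.81 to -0.09, unadjusted p = 0.0222 and adjusted p = 0.276 from limma), and that of Mpc1 was -0.24 (standard error 0.15, 95% confidence interval -0.60 to 0.13, adjusted p = 0.509). The other Mpc1 probe was also lower in every aged mouse, with a log2 difference of -0.32.

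The Mpc2 probe was printed on 10 spots of each array, and its log2 signal varied over the 8 to 10 spots left after removal of outliers with an SD between 0.037 and 0.126. The difference between the groups was thus larger than the spread between spots and that between mice (SD 0.10 in young and 0.09 in aged mice, n = 3). Mpc1 relative to Mpc2 on the same array was 1.36, 1.30 and 1.29 in young and 1.58, 1.55 and 1.44 in aged mice. Every aged mouse was above every young mouse in this difference, by 0.21 on average, which is the smallest exact two-sided permutation p that the design can give (p = 0.1, adjusted p = 0.5 over 5 pairs). It was positive under all 17 alternatives run. The replicate block, the series matrix values and scaling by the median or by detected probes cannot change a difference within an array. Both filters on dim probes left it at 0.21. Normexp background correction made it 0.09, with p = 0.5 in the same exact permutation test.

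Pdha1 (NM_008810) and Pdhb (NM_024221) encode the α and β subunits of E1, the first enzyme of the pyruvate dehydrogenase complex, and Pdha1 carries the serines that the kinases phosphorylate. Pdha1 was 5.18, 5.10 and 4.94 in young and 5.07, 4.65 and 5.22 in aged mice. Aged mouse 3 was the highest and aged mouse 2 the lowest of all 6 mice, and the log2 difference of -0.09 (standard error 0.20, 95% confidence interval -0.56 to 0.38, adjusted p = 0.854 from limma) was positive (0.074) without aged mouse 2. Pdhb was 6.24, 6.24 and 6.41 in young and 5.84, 6.09 and 6.07 in aged mice. Here the ages did not overlap, with a log2 difference of -0.30 (standard error 0.16, 95% confidence interval -0.68 to 0.07, adjusted p = 0.430 from limma). The difference between Pdha1 and Pdhb on the same array changed by 0.21, with overlapping groups (exact two-sided permutation p = 0.4, adjusted p = 0.5). It was 0.42 without aged mouse 2, and 0.09, 0.09 and 0.13 without aged mouse 1, young mouse 3 and aged mouse 3.

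Another Pdhb probe set aged mouse 1 apart from all other mice. It read 6.59, 6.36 and 6.86 in young mice and 6.20 and 6.48 in aged mice 2 and 3, but 2.70 in aged mouse 1. The processed signal there was 2023, against 21103 to 28899 on the other arrays, and the spot was neither flagged nor near background. When probes of a gene were averaged, the log2 difference of Pdhb was therefore -0.89 in place of -0.30.

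The other subunits of the complex also had lower means in aged mice. The E2 core Dlat, which carries the acetyl group on its lipoyl arms, was 4.96, 5.12 and 5.13 in young and 4.30, 4.53 and 4.33 in aged mice. Its log2 difference was -0.68 (standard error 0.16, unadjusted p = 0.00341 and adjusted p = 0.152 from limma), and the ages did not overlap. The E3 enzyme Dld and the E3-binding protein Pdhx had log2 differences of -0.31 and -0.40 (adjusted p = 0.412 and 0.453), also without overlap, as in 13.9% of all genes. Dlat kept its direction under all 18 alternatives, some of which could not change a log2 difference.

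Pdk2 (NM_133667) encodes a kinase that is present in most tissues and holds the complex in its inactive form. On the log2 scale it was 6.97, 7.12 and 7.25 in young and 6.93, 6.48 and 6.09 in aged mice. Aged mouse 1 was only just below young mouse 1, and aged mouse 3 was the lowest. The log2 difference was -0.61 (standard error 0.24, 95% confidence interval -1.18 to -0.04, unadjusted p = 0.0382 and adjusted p = 0.321 from limma). It was -0.83 without aged mouse 1 and -0.18 within row 1 of the slide, so its size rested on aged mice 2 and 3.

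Pdk4 (NM_013743) encodes the kinase that fasting, fatty acids and glucocorticoids induce in muscle. Its log2 signal was 7.08, 8.23 and 4.998 in young and 7.67, 6.94 and 7.21 in aged mice. The young mice spanned 3.23 log2 units and the aged mice 0.73, all of the aged falling between young mouse 3 and young mouse 2. The log2 difference was 0.50 (standard error 0.76, 95% confidence interval -1.29 to 2.30, adjusted p = 0.784 from limma), and without young mouse 3 it was -0.38. A range at least as wide among the young mice was found for 59 genes, Pdk4 included, which is 0.282% of those tested. Pdk4 was read by 1 probe on 1 spot per array, so no other probe could check its low value in young mouse 3. In that mouse the Ldha probes parted (8.96 against 5.83), whereas the Slc16a3 probes read alike (8.35 and 8.33). The part of the probe in the low Pdk4 value was not tested. Relative to Pdk2 on the same array, Pdk4 was 0.12, 1.11 and -2.25 in young and 0.74, 0.47 and 1.12 in aged mice. This difference changed by 1.12 and the groups overlapped (exact two-sided permutation p = 0.4, adjusted p = 0.5). The change was 0.16 without young mouse 3 and 1.84 without young mouse 2.

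Genes that respond to fasting or fatty acids were read beside Pdk4. The order seen for Pdk4, with young mouse 2 above young mouse 1 and young mouse 1 above young mouse 3, was shared by 9 of the 15 genes of this list and by 14.1% of all genes, an order that was looked for because Pdk4 showed it. Set against the mean of the young, the list had a median of 0.70 in young mouse 2 and -0.79 in young mouse 3, where all genes had -0.02 and 0.07. The ubiquitin ligases Trim63 (7.19, 7.53 and 5.76) and Fbxo32 (4.63, 5.48 and 3.89), both activated by FoxO factors, and the glucose uptake inhibitor Txnip (5.72, 6.34 and 4.19) were among the 9. The methods state free access to food but not when each mouse last ate, and the part of feeding in these values was not tested.

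**Figure D3:**
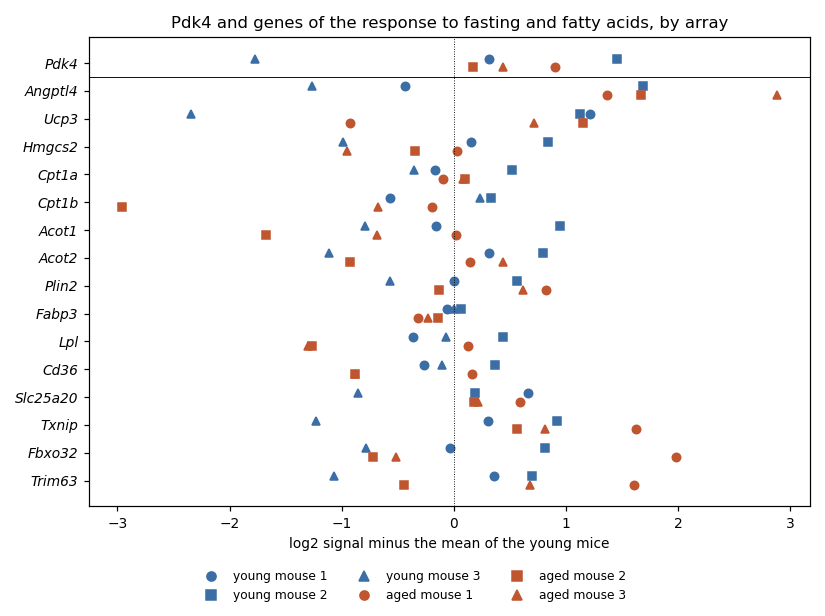
Log2 signal of Pdk4 (top row) and of 15 genes of the response to fasting and fatty acids on each array, minus the mean of the 3 young mice (horizontal axis), for young (blue) and aged (orange) mice. For Pdk4 and many of the others young mouse 3 (blue triangle) is the lowest and young mouse 2 (blue square) the highest of the young mice.

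Between the ages, the fasting list showed no common direction. Among its 15 genes the mean was higher in aged mice for 8 and lower for 7, the median was 0.03 (-0.23 without young mouse 3, -0.18 without aged mouse 1 and 0.29 without young mouse 2), and none passed an adjusted p of 0.05 in limma. Only Angptl4, an inhibitor of lipoprotein lipase and a PPAR target, had an unadjusted p under 0.05. Its log2 signal was 0.90, 3.02 and 0.07 in young and 2.70, 3.00 and 4.22 in aged mice, a log2 difference of 1.98 (standard error 0.77, adjusted p = 0.322) with young mouse 2 inside the range of the aged mice. Cpt1b, which admits fatty acids to mitochondria, had the lowest log2 difference of the list, -1.28 (adjusted p = 0.449), and it rested largely on aged mouse 2, at 3.18 against 5.46 to 6.47 in the other mice.

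Among the other genes of pyruvate and lactate metabolism, 24 of the 29 listed could be tested. Ldhc, Ldhal6b, Pdha2 and Pck2 were well above background on no array, and no probe was matched to Lipt2. None of the 24 passed an adjusted p of 0.05 in limma, 17 had a lower (56.9% of all genes) and 7 a higher mean in aged mice, and the median log2 difference was -0.21. At an unadjusted p under 0.05, 2 genes, Dlat among them, were lower and Emb was higher, where 8.38% of all genes were lower and 6.07% higher. The kinases Pdk1 and Pdk3 had log2 differences of -0.35 and 0.016, and the phosphatases Pdp1, Pdp2 and Pdpr of -0.67, -0.35 and -0.08. Of these only Pdp1 had every aged mouse below every young mouse, as in 13.9% of all genes (adjusted p = 0.416 from limma). Its young mice read 4.12, 4.03 and 5.20. Pyruvate carboxylase (Pcx) stood at -0.06, and the alanine transaminases Gpt and Gpt2 at -0.21 and 0.67, all with overlapping groups.

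Emb showed the largest difference of all these genes. It encodes embigin, a membrane protein of the immunoglobulin superfamily that accompanies monocarboxylate transporters, chiefly MCT2, to the cell surface, and that has also been described at the neuromuscular junction. The log2 signal of Emb was -1.82, -1.01 and -0.91 in young and 0.80, 1.43 and 1.99 in aged mice. Every aged mouse was above every young mouse, as was the case, by any margin, for 7.92% of all genes. The log2 difference was 2.65 (standard error 0.37, unadjusted p = 0.000204 and adjusted p = 0.0606 from limma), and its adjusted p was between 0.0329 and 0.194 over the 18 alternatives, under 0.05 with normexp background correction (0.0452), a mean-variance trend (0.0389) or without aged mouse 1 (0.0329). The related chaperone basigin, Bsg, which accompanies MCT1 and MCT4, was 6.07, 5.93 and 6.12 in young and 5.79, 5.82 and 5.71 in aged mice, a log2 difference of -0.27 (adjusted p = 0.453) with no overlap. Slc16a7, which encodes MCT2, had a log2 difference of 0.49 (adjusted p = 0.560) with overlapping groups.

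**Figure D4:**
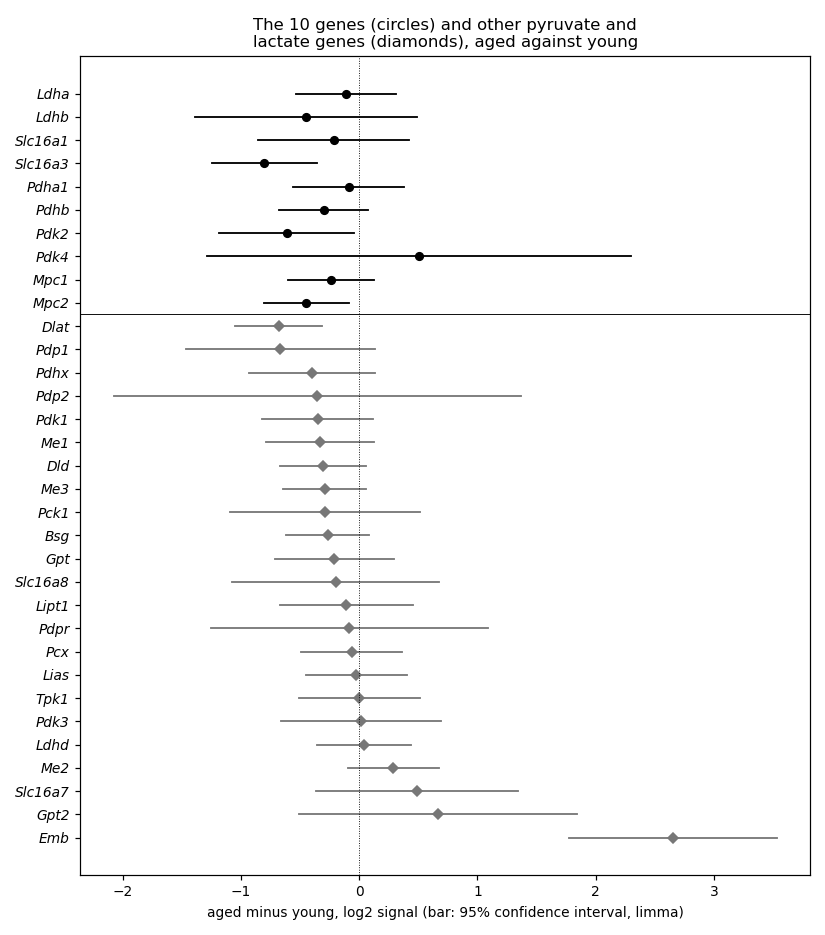
Log2 difference between aged and young mice (horizontal axis, 3 mice per group) with its 95% confidence interval from limma for the 10 genes (circles) and for other genes of pyruvate and lactate metabolism (diamonds, sorted). Of the 10 genes the intervals of Slc16a3, Pdk2 and Mpc2 lie below 0, and Emb stands apart at 2.65.

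Because lactate dehydrogenase subunits and monocarboxylate transporters are known to differ between fibre types, fibre markers are given beside the 10 genes. The 9 genes of slow and oxidative fibres (the fibre type IIa myosin Myh2 included) all had a lower mean in aged mice, with a median log2 difference of -0.58. Atp2a2, the calcium pump of slow fibres, was lowest at -0.74 (adjusted p = 0.231) and Myh2 was closest to 0 at -0.17 (adjusted p = 0.687). The signal summed over this list was between 1827 and 2373 times the 75th percentile in young and between 1292 and 1767 times in aged mice, and the groups did not overlap. For the 8 fast fibre genes tested of 9, the sum was between 5185 and 6257 in young and between 4340 and 5463 in aged mice, with a median log2 difference of -0.17 (0.0033 after quantile normalization, -0.064 without aged mouse 1), from Myh1 at -0.33 (adjusted p = 0.458) to Mylpf at 1.29 (adjusted p = 0.458), which read 1.95 in young mouse 3 and 4.52 to 5.20 in the other mice. None of these genes passed an adjusted p of 0.05 in limma, and 4 slow fibre and no fast fibre genes were lower at an unadjusted p under 0.05, as were 8.38% of all genes. The difference between both lists was not tested. The part of fibre composition in the values of the 10 genes was not tested.

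Markers of other cells in muscle are also given, since whole muscle was used. The 5 erythrocyte genes tested of 9 (Epb42 and Rhag were well above background on no array, and no probe was matched to Hbb-bs) were all lower in aged mice, with a summed signal from 634 to 921 in young and from 289 to 459 in aged mice, and with log2 differences from -1.26 for Alas2 to -0.49 for Slc4a1. The 8 Schwann cell genes had a median of -0.67, with Mbp highest at 1.33, and a summed signal from 24.7 to 44.6 in young and from 24.6 to 41.6 in aged mice. Prx of this list, a protein of myelinating Schwann cells, was the one marker past an adjusted p of 0.05 in limma (log2 difference -1.29, adjusted p = 0.0428). The sum of the 9 macrophage genes tested of 10 (Cd163 was well above background on no array) was higher in aged mice, from 28.6 to 35.2 against 24.4 to 26.1, with log2 differences from -0.05 for Csf1r to 1.36 for Lyz2. Endothelial genes had a sum from 36.4 to 42.9 in young and from 25.5 to 37.3 in aged mice, with Cdh5 at -0.79 and Pecam1 at 0.52, and adipocyte genes one from 145 to 154 and from 111 to 146, with Plin1 at -0.48 and Retn at 0.16. The part of these cells in the signal of Slc16a1 or of any other of the 10 genes was not tested.

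**Figure D5:**
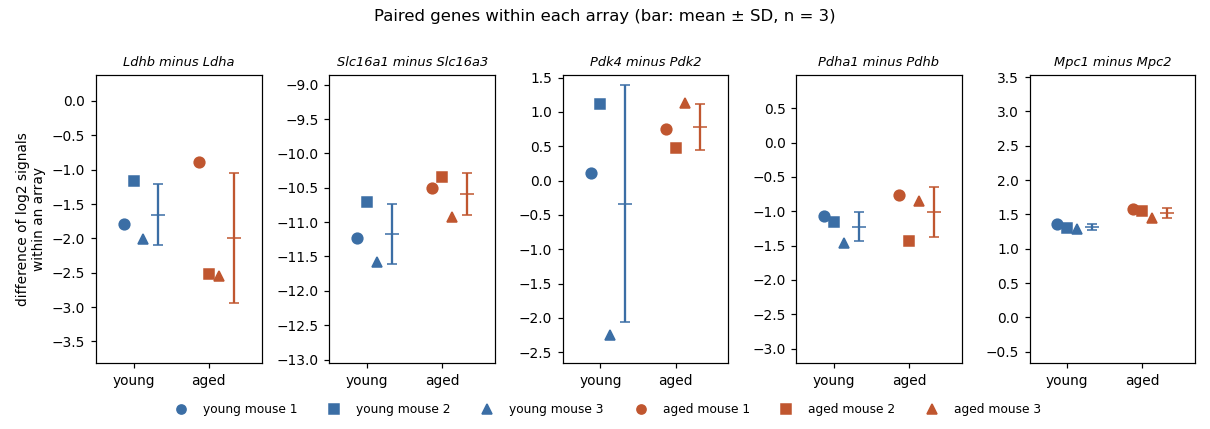
Difference between the log2 signals of 2 genes on the same array (vertical axis, the same span in every panel) for the 5 gene pairs, in young (blue) and aged (orange) mice, with mean and SD (n = 3). The Mpc1 minus Mpc2 difference is the only one of the 5 in which the aged and young mice do not overlap.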

How the data were processed

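Gastrocnemius RNA of 3 young and 3 aged mice was measured with 1 array per mouse. The authors deposited Agilent Feature Extraction files (version 11.0.1.1 in the file headers, 9.5 in the submitters' processing notes), whose processed signal is an intensity on a linear scale, background-subtracted and detrended within the array but not scaled between arrays, beside the median intensity of each spot and its background. The deposited series matrix held the same intensities. The methods name no normalization or test for the arrays.

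Of 59305 non-control spots per array, 161 to 212 flagged as non-uniform or population outliers were left out, and replicate spots were averaged on the log2 scale, giving 55681 probes. Each array was then scaled to its 75th percentile. RefSeq accessions, without version, gave a symbol to 28331 probes (GRCm38.p6 tables). Probes had to exceed background clearly on 3 or more arrays, in a share of at least 0.5 of their spots, and the kept probe with the highest mean represented a gene. The ages were compared by lmFit and eBayes of limma (version 3.58.1, R version 4.3.3), with Benjamini-Hochberg adjustment over 20900 genes. The fit was tested on simulated data. Differences within an array were compared with exact permutation tests.

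The 10 genes and all lists were chosen with earlier results of these data known. Genes named are the 10, any listed gene with an adjusted p under 0.05, pathway, fasting and hypoxia genes with an unadjusted p under 0.05, and the highest and lowest gene of each marker list; others were chosen after their values were seen. A few genes that this rule or a list would name are not reported here, although counts, medians and sums include them where they were tested. The array was designed on mm9, so no probe coordinates are given. Replicates are separate mice. Same-numbered young and aged mice are different animals, and their deviations from the group means had correlations across genes of -0.06, -0.27 and 0.03, so the numbers were not taken as pairs.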

Additional observations from a re-analysis of the deposited data

How the results depend on the processing

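Alternative processing changed the background correction (normexp, offset 50), the scaling (quantile, median, or percentile of detected probes), the filter on dim probes, the choice of probe, the use of flagged spots, the source of values, the variance model, the block (slide row or replicate number) and the set of mice. None of the 10 genes passed an adjusted p of 0.05 under any of the 18. Slc16a1, Slc16a3, Pdhb, Pdk2, Mpc1 and Mpc2 were lower in aged mice under all of them. The variance model, the source of values and the replicate block could not change a log2 difference, so the direction under these was fixed in advance. Both filters on dim probes left the log2 differences of the 10 genes as they were. Averaging probes could not change those of Slc16a1, Pdk2 and Mpc2, which had 1 probe each. Over all genes, 53 passed the threshold, and 8 did with no filter on dim probes, 35 when a probe had to exceed background clearly on each of the 6 arrays, 5 with the replicate block and between 1 (without aged mouse 3) and 199 (without aged mouse 1) when 1 mouse was left out, with 8 or 9 without any other mouse. Since each replicate number occurs at both ages, the replicate block cannot change a log2 difference, and the 10 genes had no call to lose.

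Ldha turned to 0.039 after quantile normalization and to 0.017 without aged mouse 1, with values from -0.22 to 0.017 when 1 mouse was left out. Pdha1 turned to 0.074 without aged mouse 2 (-0.21 to 0.074) and Pdk4 to -0.38 without young mouse 3 (-0.38 to 1.23). With slide row as a block, so that aged mouse 1 stands for its age, Ldhb was 0.39, Pdha1 3.1e-05 and Ldhb minus Ldha 0.76. For aged mice 2 and 3, age cannot be told apart from row. The median of the other pyruvate and lactate genes was -0.11 with normexp, -0.35 with median scaling, which moved the median of all genes from -0.06 to -0.21, -0.033 with the row as a block, and between -0.30 and -0.11 with 1 mouse left out. The fast fibre median was -0.42 with the row as a block, and the hypoxia median was between -0.35 and -0.10 with 1 mouse left out. The cause of these shifts was not tested. Signal over background limits Slc16a1 most, the dimmest of the 10.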
